A study of Mus musculus with 9 samples.

Results

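The myeloid dendritic class of mouse blood comprised every barcode column of the deposited blood table whose name starts with the class name dendritic-cells-myeloid-CD8a-. These were 122 of 4310 columns (2.83%), and the name, given by the authors, was the only criterion. Blood cells (labelled PBMC) were profiled by Seq-Well, in which barcoded beads tag the polyA RNA of cells held in tiny wells. The samples came from 5 female 129SvE mice labelled sick with rheumatoid arthritis (disease stages between 1.5 and 2.5) and 4 healthy female 129SvE mice (disease stage 0), and each mouse was 1 library. The labels used here name neither the agent that induced the arthritis nor an age. The arthritic mice gave 116 of the columns, with 24 from mouse 1, 17 from mouse 3, 21 from mouse 4, 3 from mouse 5 and 51 from mouse 6. The healthy mice gave the other 6, with 4 from mouse 1, 1 from mouse 2, 0 from mouse 3 and 1 from mouse 4.

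Dendritic cells take up antigen, cut it in lysosomes and show the peptides to T cells on MHC class II molecules, while monocytes circulate in blood and enter inflamed tissue. Growth of monocytes and macrophages depends on the receptor Csf1r, and that of dendritic cells on the receptor Flt3. Blood monocytes of the classical kind carry Ly6c2 and the chemokine receptor Ccr2, those of the nonclassical kind carry high Cx3cr1, and type 1 conventional dendritic cells depend on the transcription factor Batf3 and carry the chemokine receptor Xcr1.

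A column held a total signal of 6312 to 18803 (median 9067) over 2381 to 5581 genes, against a median of 11055.5 in the other blood columns. The columns were not independent. They fell into 95 distinct profiles, 43 columns were identical to another column of the class in every gene, and 26 were identical to a column of another mouse. Of the 6 healthy columns, 3 were identical to an arthritic column, although no barcode was shared between mice within the class. P-values across mice therefore rest on libraries that share profiles. Hemoglobin, a red cell product, took over 5% of the signal in 23 columns, of which 15 were from arthritic mouse 4, 4 from arthritic mouse 6, 2 from healthy mouse 1, and 1 each from healthy mice 2 and 4.

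The 5 marker genes were all present, at very different levels. Levels are given as signal per 1000000 (SPM) of the summed columns of a mouse, scaled with a trimmed-mean factor, for the 4 mice with at least 5 columns of the class: arthritic mice 1, 3, 4 and 6. Because the class names may rest on expression, class against other columns is a description with no test. Csf1r stood at 145, 148, 82.2 and 128 SPM in the class of arthritic mice 1, 3, 4 and 6, against 23.7, 16.9, 48.4 and 64.3 SPM in their other columns. Cx3cr1, the fractalkine receptor, stood at 108, 123, 126 and 95.8 SPM in the class, against 15.5, 12.02, 55.3 and 60.8 SPM in the other columns. For both genes every class value lay above every other value, and the gap was narrowest in mice 4 and 6. Ctss, the cathepsin that trims the MHC class II invariant chain, stood at 2068, 1805, 2038 and 1851 SPM in the class, against 445, 469, 805 and 973 SPM in the other columns. Flt3 was low, at 59.5, 24.6, 16.4 and 30.6 SPM in the class, against 10.6, 14.4, 12.3 and 17.7 SPM in the other columns. Itgax, which encodes CD11c, was lower still, at 22.3, 34.4, 5.48 and 12.2 SPM in the class, against 2.42, 3.92, 7.08 and 6.25 SPM in the other columns. Flt3 was higher in the class in all 4 mice and Itgax in 3 of 4, the exception being mouse 4.

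**Figure D1:**
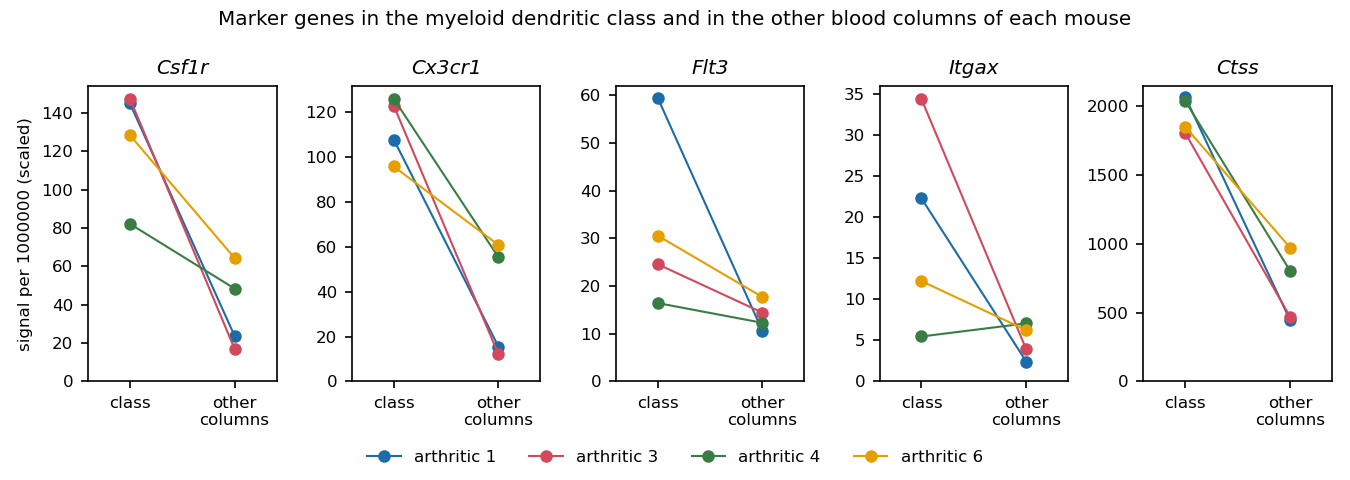
Signal per 1000000 of the 5 marker genes in the summed columns of the class (left points) and in all other blood columns (right points), 1 line per arthritic mouse. Csf1r, Cx3cr1, Flt3 and Ctss were higher in the class in all 4 mice, and Itgax was at 5.48 in the class and 7.08 in the other columns of mouse 4.

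Per column, Ctss was present in all 122 columns, Csf1r in 82, Cx3cr1 in 73, Flt3 in 33 and Itgax in 20. Csf1r was found in 67.2% of class columns and in 5.11% of 450 columns of the CD4 T cell class, whose median total signal of 8448 was close to the 9067 of the class. Thinned to the same total signal of 6312, Csf1r was expected in 54.8% of class columns and 2.33% of CD4 T cell columns, with 0 class and 15 T cell columns too shallow to enter. It was found in 14.2% of B cell columns (9.49% after thinning) and in 28.6% of granulocyte-named columns (20.4% after thinning). Flt3 was found in 27.0% of class columns and 14.0% of CD4 T cell columns, or 20.7% and 6.55% after thinning. Siglech, a surface receptor of plasmacytoid dendritic cells, was found in 27.9% of class columns and in 30.2% of the 331 columns of the FoxP3 T cell class, whose median total signal was 10366. After thinning it was expected in 24.7% of class columns, against 20.3% of FoxP3 T cell, 11.0% of CD4 T cell, 10.3% of B cell and 10.6% of granulocyte-named columns. Cd209a, a lectin of type 2 conventional dendritic cells, was found in 2 class columns, and Fcgr4, a receptor of nonclassical monocytes, in 4. For Fcgr4 this is 3.28%, against 12.1% of granulocyte-named columns, whose median total signal was 12397. Csf1r and Flt3 stood together in 24 columns, and 31 had neither. Ccr2 was present in 117 of the 122 columns and Lyz2, the lysozyme of monocytes and granulocytes, in all of them. Csf1r, Cx3cr1, Ccr2 and Lyz2 were thus found in more class columns than Flt3 and Itgax. Of genes linked to dendritic cells, Cst3 was in all 122 columns (and in 93.0% of granulocyte-named columns). Batf3 was in 52 (42.6%), against 8.19% of granulocyte-named and 8.61% of B cell columns. Lyz2 was also in 100% and Ccr2 in 52.9% of granulocyte-named columns. These counts alone do not settle whether a dendritic or a monocyte name suits the columns, which are called the class in what follows.

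Genes of the MHC class II pathway stood above the other columns by size. Of 4066 genes at 50 SPM or more, 30 (0.738%) were over 1 higher on the log2 scale in the class in all 4 mice. These included 4 of the 11 MHC class II pathway genes at that level, which were H2-Aa, H2-Eb1, H2-DMa and H2-DMb1. Counting any size, 621 genes (15.3%) were higher in all 4 mice, among them 7 of these 11. The class had the highest level of all blood classes with at least 5 columns in every mouse for 98 genes (2.41%), and 6 of these were pathway members. The median log2 difference of the pathway genes was 1.47, against −0.16 over all genes (0.24 when only the total signal was used for scaling).

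Cd74, the invariant chain that guides MHC class II molecules to the peptide-loading compartment, stood at 9395, 6216, 6624 and 5101 SPM in the class of arthritic mice 1, 3, 4 and 6, against 1841, 2755, 1677 and 2669 SPM in the other columns. Cd74 averaged 6834 ± 1824 SPM in the class and 3879 ± 445 SPM in the class named B cells (SD, n = 4 mice each), whose antigen presentation also uses it. The class and B cell ranges of Cd74 did not overlap. H2-Aa, the alpha chain of the I-A molecule, stood at 3667, 2351, 2559 and 1943 SPM in the class, against 574, 859, 605 and 960 SPM in the other columns. H2-DMb1, a chain of the peptide exchange factor H2-DM, stood at 710, 448, 153 and 375 SPM in the class, against 67.4, 76.1, 75.6 and 105 SPM in the other columns. Mouse 4, the mouse with the high hemoglobin, had the lowest H2-DMb1 of the class, but its Cd74 and H2-Aa lay above those of mice 3 and 6.

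Promoters of 3 of these genes are shown because MHC class II genes share a known promoter module, whose Y box binds the factor NF-Y. Each sequence runs from 250 bases before to 50 bases after the start that RefSeq gives the gene on GRCm38.p6. H2-DMb1 lies at chr17:34152941-34153240 on the plus strand, H2-Aa at chr17:34287774-34288073 on the minus strand and H2-Eb1 at chr17:34305617-34305916 on the plus strand. Capitals mark the letters TGATTGG of the Y box, searched on both strands.
H2-DMb1: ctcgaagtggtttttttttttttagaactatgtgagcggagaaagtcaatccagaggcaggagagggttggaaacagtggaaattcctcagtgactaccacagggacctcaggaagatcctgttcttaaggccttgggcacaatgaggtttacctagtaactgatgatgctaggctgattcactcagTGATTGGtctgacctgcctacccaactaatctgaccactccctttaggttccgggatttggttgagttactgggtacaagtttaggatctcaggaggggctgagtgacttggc
H2-Aa: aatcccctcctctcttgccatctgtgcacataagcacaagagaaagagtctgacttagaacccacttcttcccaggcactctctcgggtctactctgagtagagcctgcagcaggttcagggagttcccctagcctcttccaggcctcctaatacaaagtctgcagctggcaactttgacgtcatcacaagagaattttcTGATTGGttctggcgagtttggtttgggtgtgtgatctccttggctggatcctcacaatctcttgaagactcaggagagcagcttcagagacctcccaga
H2-Eb1: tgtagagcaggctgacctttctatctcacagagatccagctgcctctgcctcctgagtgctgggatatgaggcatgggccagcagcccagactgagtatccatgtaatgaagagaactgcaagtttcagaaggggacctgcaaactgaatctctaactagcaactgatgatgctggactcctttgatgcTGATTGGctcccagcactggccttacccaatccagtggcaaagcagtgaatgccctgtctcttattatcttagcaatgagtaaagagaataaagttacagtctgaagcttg
The Y box letters stood 63, 50 and 61 bases before the RefSeq start of H2-DMb1, H2-Aa and H2-Eb1. The GENCODE annotation starts H2-DMb1 further upstream, at position 34153072 of chromosome 17, so that its Y box letters lie after that start. Of all 32851 promoters in the table, 7.82% held these letters. Among the 16 pathway genes, 11 were in the promoter table, 7 of which held them. The letters are a description of these windows and not evidence of binding in these cells.

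Beyond MHC class II, the genes that stood highest in the class against the other columns were of monocytes, interferon response and phagocyte receptors. Pid1 led, at 95.3 ± 21.1 SPM in the class and 14.3 ± 7.75 SPM in the other columns, a mean log2 difference of 2.76 ± 0.91 (SD, n = 4 mice). Ifi205, an interferon-induced nuclear protein gene, followed at 2.68 ± 1.27, and its relative Ifi207 stood at 2.07 ± 0.72. Clec4b1, a C-type lectin gene of dendritic cells and monocytes, had the smallest spread of the log2 difference between mice among the 20 genes highest in the class, at 96.7, 83.6, 71.2 and 81.6 SPM in the class, against 11.5, 10.9, 12.3 and 16.1 SPM in the other columns. Ace (2.42 ± 1.70) and Adgre4 (2.31 ± 1.08) mark nonclassical monocytes, and together with Cx3cr1 (1.95 ± 1.24) they belong to the genes that also split the columns below. The nonclassical monocyte genes outside that split followed less, with a median log2 difference of 0.55 over 14 genes. Of these 14, 7 were higher in all 4 mice, against 15.3% of all genes, and 0 were over 1 in every mouse. Havcr2, the checkpoint receptor TIM-3, stood at 2.35 ± 0.43, and Dnase1l3, a nuclease secreted by dendritic cells and macrophages that digests DNA in serum, at 2.33 ± 0.99. Batf3 (2.35 ± 1.54) ranged from 160 SPM in mouse 1 to 11.0 SPM in mouse 4 within the class. Phf11d, Tppp3, Clec4a3, Dusp3, Sirpb1c, Aif1, Nupr1 and Cd244 had mean log2 differences between 1.96 and 2.62. Of the 20 genes highest in the class by mean difference, 11 were over 1 in every mouse.

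Genes shared by monocytes and dendritic cells were higher in the class in all 4 mice for 13 of 15 measured members, including Spi1, Irf8, Tyrobp, Cst3 and Mpeg1. Of the lysosome and cathepsin genes, 10 of 17 were higher in all 4 mice, among them Ctsb, Ctsh, Lamp1 and Psap. Of the type I interferon genes 10 of 15 were higher in all 4 mice, among them Ifitm3 and Irf7, but none was over 1 in every mouse. Of the Toll-like receptor genes, Tlr13 alone was over 1 higher in all 4 mice, at 40.9, 44.3, 54.8 and 61.2 SPM in the class, against 9.85, 8.46, 18.1 and 21.2 SPM in the other columns. Over all genes the share higher in all 4 mice was 15.3%, and the names of the columns may rest on genes of these lists.

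Classical monocyte genes, apart from those that split the columns below, did not stand above the rest of the blood as a group, with a median log2 difference of −0.17 over 13 genes. S100a4, a calcium-binding protein gene, was the only one of the 13 over 1 higher in all 4 mice. The monocyte genes of the split, a list that holds Ccr2 and F13a1, had a median of 1.70 over 9 genes. Of these 9, 7 were higher and 1 was lower in all 4 mice. Lyz2 stood at 7264, 9452, 7363 and 9415 SPM in the class of arthritic mice 1, 3, 4 and 6, against 24843, 25838, 15626 and 19375 SPM in the columns named granulocytes of the same mice. In mouse 6 the granulocyte-named columns also held more Csf1r (162 SPM) and Ccr2 (1225 SPM) than the class did (128 and 797 SPM). Cx3cr1 was at 95.8 SPM in the class and 155 SPM in the granulocyte-named columns of that mouse, so that monocyte genes were not limited to the class there.

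Neutrophil genes were low in the class, with 12 of 14 over 1 lower in all 4 mice, against 133 of all 4066 genes (3.27%), and a median log2 difference of −4.09. Myeloid progenitor genes had a median of −5.14, with 6 of 7 over 1 lower, and basophil and mast cell genes one of −4.26 over 3 genes. Ltf, the secondary granule protein lactoferrin, stood at 48.3, 24.6, 11.0 and 18.3 SPM in the class, against 4377, 2775, 2203 and 410 SPM in the other columns. Pooled over these mice Ltf was 86.1-fold lower in the class. Fcnb, a ficolin of maturing neutrophils, was 99.1-fold lower. Ms4a3, a marker of granulocyte and monocyte progenitors, was at 0 in the class and at least 38.3-fold lower, and Anxa3 was at 0 and at least 26.0-fold lower, with a floor of 3 signal units over the pooled class. Igkv3-12, an immunoglobulin light chain segment whose reads may be split among similar segments, was at 0 and at least 52.7-fold lower. All 14 measured cell cycle genes were lower in the class in all 4 mice, as were 1113 of all 4066 genes (27.4%), and 6 of the 14 were over 1 lower, with a median log2 difference of −2.28. S100a8 remained at 3507, 3108, 2838 and 3707 SPM in the class, against 273914, 294901, 109050 and 41677 SPM in the granulocyte-named columns. The count of genes over 1 higher was 188 without the granulocyte columns and 18 without the columns shared between mice. Without arthritic mouse 4 they were 81 higher, and without arthritic mouse 6 they were 79 higher and 282 lower. The rule asks for every mouse used, so leaving out a mouse loosens it and a rise in these counts says little.

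Within the class, a column was called dendritic-like where its mean over 15 dendritic genes (Flt3, Xcr1, Clec9a, Siglech, Cadm1 and others), centred on all blood columns, was above its mean over 15 monocyte genes (Csf1r, Cx3cr1, Ccr2, Ms4a6c, F13a1 and others), and otherwise monocyte-like. By this rule 17 columns (11 distinct profiles) were dendritic-like, with 6 from arthritic mouse 1, 1 from mouse 3, 1 from mouse 4 and 9 from mouse 6. The other 105 columns (84 distinct profiles) were monocyte-like, and they included all 6 healthy ones. The columns formed a range rather than groups set well apart. The difference between the scores ran from −1.43 to 1.16, with 24 columns within 0.25 of the cut. The last column inside it lay at 0.05 and the first outside at −0.02. A split by the share of summed list signal called 7 columns dendritic-like, all of them among the 17.

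**Figure D2:**
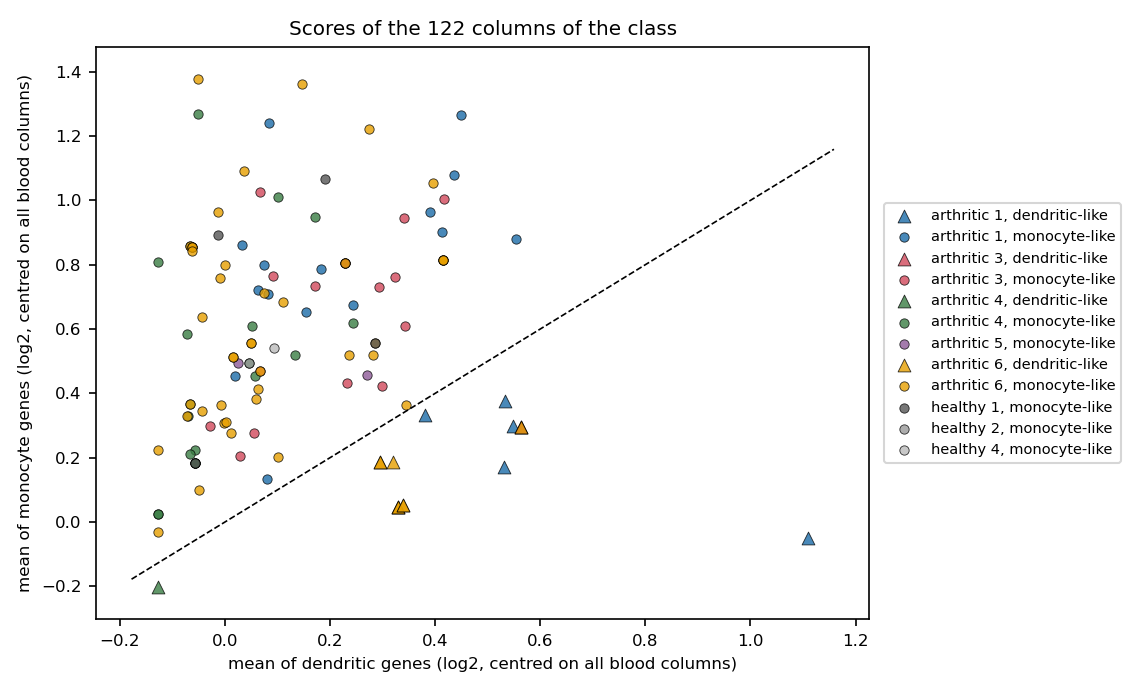
Each point is 1 of the 122 columns, with the mean of the dendritic genes on the x axis and of the monocyte genes on the y axis, both as centred log2 values, and the dashed line is the cut. The 17 dendritic-like columns lie below the line and come from arthritic mice 1, 3, 4 and 6, and the column farthest to the right is the Siglech column of mouse 1.

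The dendritic-like columns were of several kinds, a description made after their values were seen. In 7 of them Cst3, the protease inhibitor cystatin C that is abundant in dendritic cells, had a signal of 74 to 80, against at most 40 in any other column of the class. These 7 held 4 to 6 Batf3, against at most 3 elsewhere, with 1 to 3 Xcr1 and 1 to 2 Flt3. Their Lyz2 was 5 to 15, against a median of 80 elsewhere. All 7 lacked any Itgax or Clec9a signal. Their summed type 1 dendritic genes (Batf3, Irf8, Id2, Ppt1, Naaa and others) reached 49.4 to 70.5 per 10000, and no other column passed 24.1. The 7 columns made up 5 distinct profiles: 5 came from mouse 1, and the 1 from mouse 3 and the 1 from mouse 6 were identical to columns of mouse 1. A further column of mouse 1 held a Siglech signal of 18, against at most 3 elsewhere. Its summed plasmacytoid genes reached 48.9 per 10000, while its MHC class II genes were at 44.8 per 10000. The other 9 dendritic-like columns had neither pattern. Of these, 8 columns of mouse 6 (4 distinct profiles) held 1 Flt3, 2 Siglech and 2 Cadm1 each, with Lyz2 at 55 to 72. The remaining column, from mouse 4, had 0 signal over the dendritic genes, 1.94 per 10000 over the monocyte genes and 46.3% hemoglobin.

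**Figure D3:**
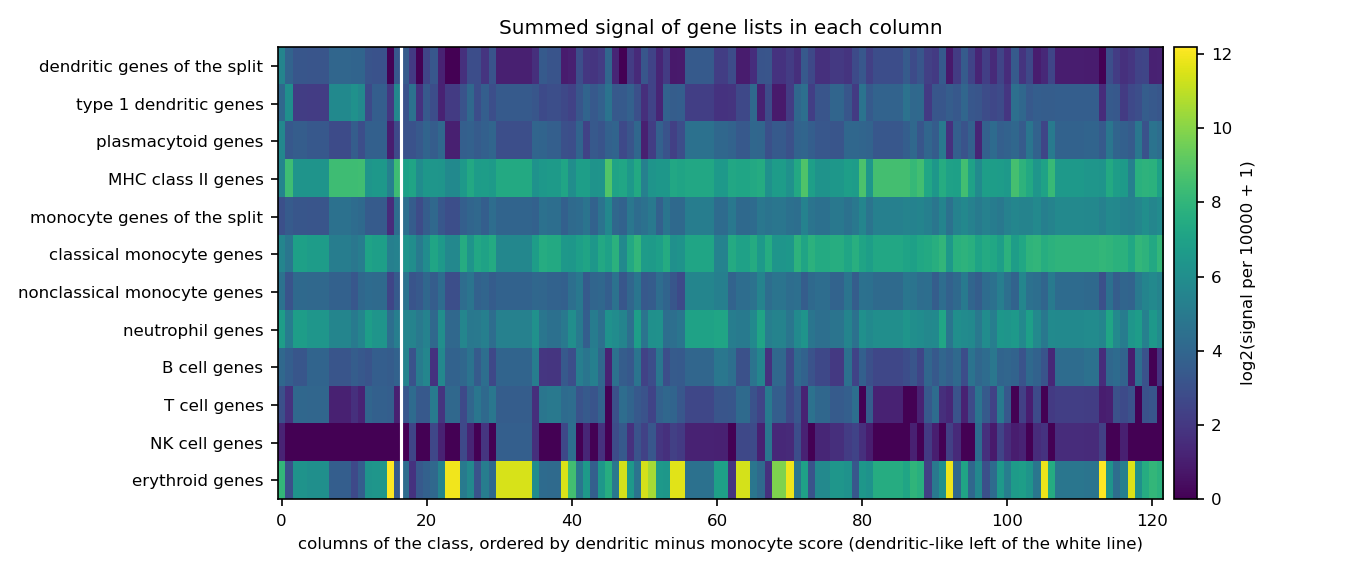
Summed signal of 12 gene lists (rows) in each of the 122 columns, as log2(signal per 10000 + 1), with columns ordered by dendritic minus monocyte score and the dendritic-like columns left of the white line. The 7 columns with high type 1 dendritic signal (49.4 to 70.5 per 10000) also have high MHC class II signal, and bright erythroid cells mark the 23 columns with over 5% hemoglobin.

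MHC class II was not particular to the dendritic-like columns. The summed MHC class II genes ran from 37.0 to 468 per 10000 over the class, with a median of 111. Over 200 stood 24 columns, the 7 Cst3-rich ones, at 336 to 353, and 17 monocyte-like ones (14 distinct profiles). The 17 came from arthritic mice 1 (9 columns), 3 (3 columns), 4 (2 columns) and 6 (3 columns). In these 17 the monocyte genes reached 39.0 to 64.1 per 10000 (median 43.0), against 6.10 to 57.0 (median 23.4) in the 88 other monocyte-like columns. B cell genes were at a median of 6.33 per 10000 in the 17, against 15.1 in the 88, and T cell genes at 1.26, against 9.58. Over the 95 distinct profiles MHC class II signal showed little correlation with B cell signal (Pearson r = −0.20, Spearman rho = −0.02). Over the same profiles, MHC class II signal correlated with the type 1 dendritic genes (Pearson r = 0.64, Spearman rho = 0.56) and with the monocyte genes (r = 0.39, rho = 0.39), as a description over columns that share libraries and total signal.

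**Figure D4:**
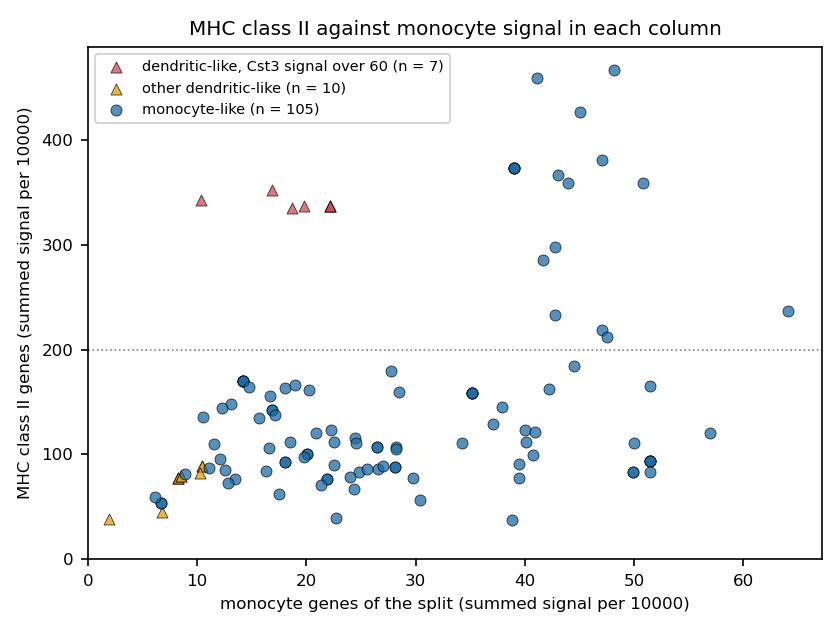
Summed MHC class II signal (y axis) against summed signal of the monocyte genes (x axis) in each of the 122 columns, both per 10000. Above the dotted line at 200 lie the 7 Cst3-rich dendritic-like columns and, apart from them at monocyte signals of 39.0 and more, 17 monocyte-like columns.

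Between the kinds, summed columns were compared within arthritic mice 1, 3, 4 and 6 with limma, with the mouse as a block. The dendritic-like sums of mice 3 and 4 were 1 column each. That of mouse 3 was identical to a column of mouse 1, and that of mouse 4 had 0 signal over the dendritic genes and 46.3% hemoglobin. The 4 mice are therefore not 4 independent replicates of dendritic-like columns. The sums differed in size, at 50498, 8574, 10335 and 78493 total signal for dendritic-like columns, against 180750, 167138, 197529 and 393873 for monocyte-like columns of the same mice. On the sums as they stood, limma called 1 of 6954 genes higher in dendritic-like columns (0.0144%) and 1632 lower (23.5%), at a Benjamini-Hochberg adjusted p under 0.05, and the median gene differed by −2.40. Of the genes called lower, 917 were at 0 in all 4 dendritic-like sums. With every sum thinned to 8574 signal, a step added after these counts were seen, the median gene differed by 0.04, and 12 of 3499 genes were called higher (0.343%) and 52 lower (1.49%). The monocyte genes that define the kinds are among these counts: 49 of the 52, and 1626 of the 1632 on the unthinned sums, lie outside the genes of the split. Of the 52, 42 were also lower on the unthinned sums, and none of the 12 was higher there. The calls after thinning depended on the mice and the shared columns. No gene was called without mouse 1, without mouse 3 or without the mouse block, although 171, 273 and 453 genes had an unadjusted p under 0.05. Without mouse 4 there were 107 higher and 100 lower, without mouse 6 there were 0 higher and 14 lower, and without columns shared between mice 1 gene was called lower and 0 higher. All values below on the differences are log2 differences after thinning, on the scale log2(signal per 10000 + 1), and adjusted p-values are those of limma. The SPM beside them run low for dendritic-like columns. Their trimmed-mean factor is computed from genes with signal, and it lowered these smaller sums more than the monocyte-like ones. SPM pairs therefore overstate what is lower in dendritic-like columns and can differ in direction from the total signal.

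Classical monocyte genes were lower in the dendritic-like columns, with 5 of 12 tested called, all 12 differences negative and a median of −1.16. These genes lie outside the split, but over the 95 distinct profiles their signal rose with that of its monocyte genes (Pearson r = 0.66, Spearman rho = 0.65). Their direction and p-values are therefore not independent of how the kinds were defined. Lyz2 stood at 704, 740, 1791 and 4537 SPM in dendritic-like columns of mice 1, 3, 4 and 6, against 8946, 9705, 7469 and 9780 SPM in monocyte-like columns. The ranges of Lyz2 did not overlap, and the difference was −1.90 (SE 0.33, adjusted p = 2.82e-05). Ly6c2, a surface protein of classical monocytes, stood at 35.8, 0, 0 and 311 SPM in dendritic-like columns, against 392, 387, 313 and 545 SPM in monocyte-like columns (−1.72, SE 0.37, adjusted p = 0.0041). Mgst1, a microsomal glutathione transferase, was at 0 in all dendritic-like sums, against 231, 265, 284 and 288 SPM in monocyte-like columns, and was at least 14.3-fold lower in the pooled dendritic-like columns (adjusted p = 0.0041). S100a4 (−1.41), Vim, the intermediate filament protein vimentin (−1.39), and Cybb, the catalytic subunit of the phagocyte oxidase (−1.41), were also called lower. Cybb averaged 193 ± 131 SPM in dendritic-like columns and 857 ± 172 SPM in monocyte-like columns (SD, n = 4 mice).

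Other genes at 0 in all 4 dendritic-like sums on the unthinned data were Nfe2l2, the transcription factor of the antioxidant response, at least 8.92-fold lower, and Atg3, an enzyme of autophagy, at least 8.87-fold lower. Kmt2c, a histone methyltransferase, was at least 9.03-fold lower, Map7d1 at least 7.82-fold and Lst1, a leukocyte adaptor protein, at least 7.56-fold. Emc2, Pde4b, Rabac1, Tgfbi, Eno1 and Ube2l3 followed them in size of difference. After thinning, Rabac1, Tgfbi, Eno1 and Ube2l3 had adjusted p-values of 0.17, 0.076, 0.086 and 0.087, and the others named in this paragraph were still called. Genes at 0 in all 4 dendritic-like sums, Mgst1 included, passed the filters on low values through the monocyte-like sums alone. They were named for the size of their difference, so the ratios given for them are not sure lower bounds.

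Among the type 1 dendritic genes all 7 tested were on the higher side in dendritic-like columns, with a median of 0.86 against 0.04 over all genes tested, and 1 of them, Batf3, was called. The genes that define the kinds include Xcr1, itself carried by type 1 dendritic cells. The differences and p-values of type 1 genes are therefore not independent of the split. Batf3 stood at 322, 296, 0 and 151 SPM in dendritic-like columns of mice 1, 3, 4 and 6, against 75.6, 40.7, 11.4 and 35.7 SPM in monocyte-like columns. It was higher in 3 of 4 mice (1.45, SE 0.37, adjusted p = 0.024). Cst3 stood at 4668, 3947, 59.7 and 1379 SPM, against 1474, 779, 887 and 774 SPM in monocyte-like columns, and missed the threshold (1.11, SE 0.35, adjusted p = 0.072). Of genes outside the lists of dendritic genes, Tnni2, a troponin subunit of fast muscle, stood at 215, 247, 0 and 258 SPM in dendritic-like columns, against 14.2, 5.09, 11.4 and 4.76 SPM in monocyte-like columns (1.67, SE 0.37, adjusted p = 0.0042). Tapbpl, a peptide editor of MHC class I, was higher in all 4 mice, at 167, 197, 59.7 and 133 SPM in dendritic-like columns, against 33.1, 25.4, 45.5 and 50.0 SPM in monocyte-like columns (1.39, SE 0.37, adjusted p = 0.028). The 59.7 SPM of mouse 4 amount to 1 signal unit, and the mouse 3 column is identical to a column of mouse 1. Aif1, an actin-binding protein of macrophages, was higher in 3 of 4 mice (1.27, adjusted p = 0.039), and mouse 4 had none. The single gene called higher on the unthinned sums was Rcbtb1, which rested on 1 signal unit in each dendritic-like sum of mice 3, 4 and 6. It stood at 47.8, 49.3, 59.7 and 8.90 SPM in dendritic-like columns, against 0, 0, 11.4 and 0 SPM in monocyte-like columns, too low to be tested after thinning. Next to it by unadjusted p stood Gna15, Mapk8ip3, Apoa1bp, Ipo5, Selenoi, Stambp and Polr2j, all with adjusted p-values between 0.075 and 0.12 on those sums. After thinning Gna15 and Stambp were called higher, at adjusted p-values of 0.044 and 0.039.

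MHC class II genes did not separate the kinds: 6 of 11 were on the higher side in dendritic-like columns, none was called, and the median was 0.01. In SPM, which run low for dendritic-like columns, H2-Aa stood at 3104, 2516, 418 and 1317, against 3429, 2173, 2615 and 1916 in monocyte-like columns. The dendritic-like value of mouse 4 is that of the column with 46.3% hemoglobin. The H2-Aa difference after thinning, −0.12 (SE 0.34), was smaller than its error.

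**Figure D5:**
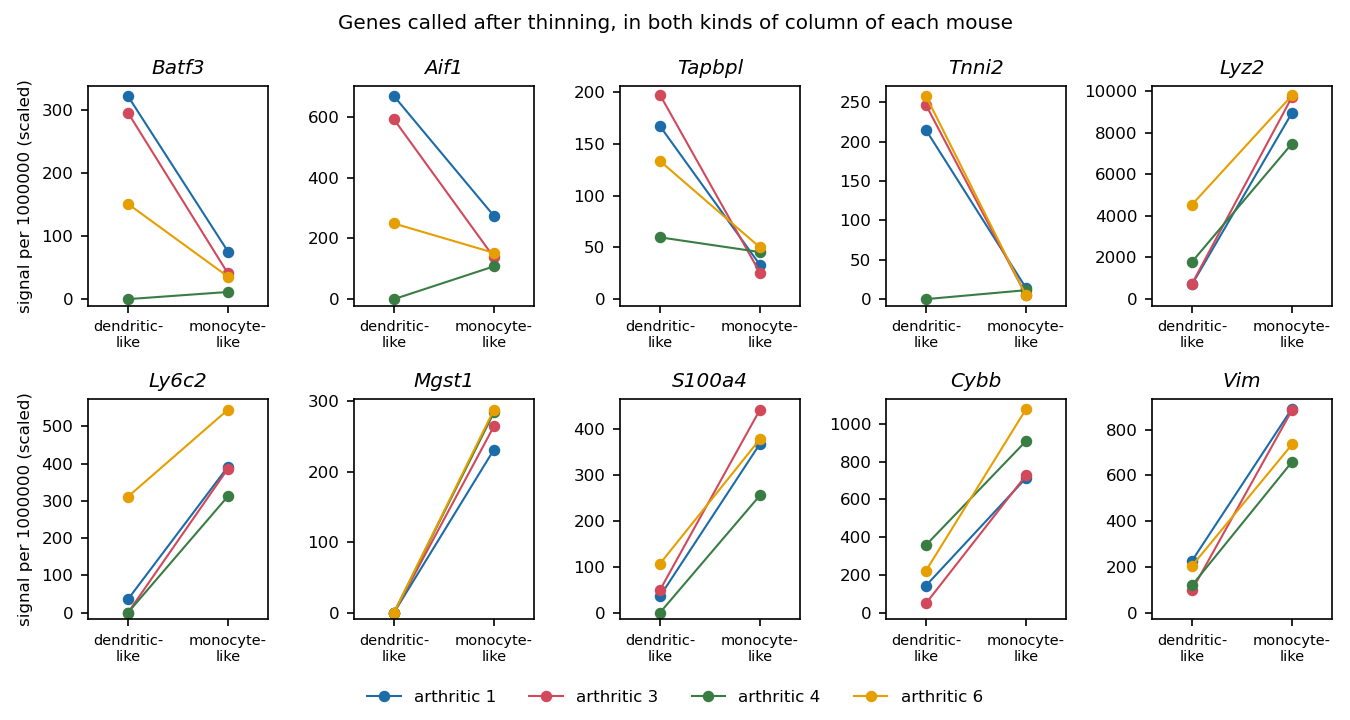
Signal per 1000000 of 10 genes called after thinning, chosen after their values were seen, in dendritic-like (left) and monocyte-like (right) columns, 1 line per arthritic mouse. The scaling lowers dendritic-like values more than monocyte-like ones. Lyz2, Ly6c2, Mgst1, S100a4, Cybb and Vim are lower in dendritic-like columns of all 4 mice, while mouse 4 runs against the others for Batf3, Aif1 and Tnni2, where its dendritic-like sum is 0.

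Dendritic-like columns made up 25%, 5.88%, 4.76%, 0% and 17.6% of the class in arthritic mice 1, 3, 4, 5 and 6, and 0% in healthy mice 1, 2 and 4. The mean share was 10.7 ± 10.3% in arthritic mice (SD, n = 5) and 0 in healthy mice (n = 3), which was not distinguishable (exact permutation test over 56 splits, two-sided p = 0.18, smallest possible 0.018). With the split by summed list signal the mean share in arthritic mice was 3.63% (p = 0.46, exact permutation test). With 6 healthy columns the share in healthy mice is poorly fixed. The class itself made up 2.34%, 1.76%, 2.91%, 0.598% and 6.42% of all columns in arthritic mice 1, 3, 4, 5 and 6, and 13.3%, 0.498%, 0% and 2.22% in healthy mice 1 to 4, of which mice 1, 3 and 4 had 30, 26 and 45 columns in all.

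Arthritic and healthy mice differed within the class mainly in how much signal was there to compare: 1126250 in the 5 arthritic mice and 61846 in the 3 healthy mice with any column. On the unequal sums limma called 1083 of 9089 genes higher in arthritic mice (11.9%) and 1 lower (0.011%), at an adjusted p under 0.05, and the median gene differed by 2.14. Of the genes called higher, 888 were at 0 in all healthy sums. With a pseudocount of 10 or with array weights 0 genes were called in either direction, without healthy mouse 1 there were 2970 higher, and without healthy mouse 4 there were 703. Lat2, an adaptor of myeloid and B cell receptors, stood at 119, 93.4, 38.4, 164 and 106 SPM in arthritic mice 1, 3, 4, 5 and 6, against 0 in the 3 healthy mice. Pooled, its arthritic level was 2.18-fold above 48.5 SPM, to which 3 signal units in the healthy mice amount. Ap1b1 (2.42-fold), Crem, a cyclic AMP response modulator (1.85-fold), the pseudogene Rpsa-ps4 (1.98-fold), Gatm (2.00-fold) and Mien1 (1.52-fold) followed. Reads of Rpsa-ps4 cannot be told apart with certainty from those of Rpsa. All of these genes were at 0 in the small healthy pool and were named for the size of their difference. The ratios are therefore not sure lower bounds, and no gene was called after thinning. Nlrp1b, the single gene called lower, rested on 4 signal units in arthritic mice and 3 in healthy mice.

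With all sums thinned to 11243 signal, 0 of 3336 genes passed in either direction (0% each), 432 had an unadjusted p under 0.05 in limma, and the median gene differed by 0.14. Without the columns over 5% hemoglobin, limma after thinning called 104 higher and 176 lower, but a single healthy mouse was left, which was assumed to vary like the arthritic ones. Without arthritic mouse 4 it called 9 higher and 9 lower, without arthritic mouse 6 it called 0 higher and 6 lower, and without healthy mouse 2 it called 10 higher and 9 lower. The smallest p-values belonged to hemoglobin genes. Hbb-bs stood at 4753, 3403, 196057, 2255 and 23812 SPM in arthritic mice 1, 3, 4, 5 and 6, against 120258, 38103 and 174643 SPM in healthy mice 1, 2 and 4, a difference of −3.50 (SE 0.79, adjusted p = 0.075). In SPM, arthritic mouse 4 lay above all the healthy mice. The trimmed-mean factor lowered the sums of healthy mice 2 and 4, of 1 column each, more than those of the other mice. By median hemoglobin share per column, arthritic mouse 4 (28.8%) lay above healthy mice 1 and 2 (14.8% and 9.40%). It lay below healthy mouse 4 (37.6%). On the unthinned sums Rcan1, Hba-a2, Hba-a1 and Bcar3 lay on the lower side in arthritic mice, with adjusted p-values of 0.070 to 0.13. Of the 6 healthy columns, 4 held over 5% hemoglobin.

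MHC class II and monocyte genes gave no call after thinning, which matched the total signal of the sums but neither their number of columns nor their hemoglobin. Cd74 stood at 9395, 6216, 6624, 5255 and 5101 SPM in arthritic mice 1, 3, 4, 5 and 6, against 5347, 2465 and 2184 SPM in healthy mice 1, 2 and 4. The SPM of healthy mice 2 and 4, here and below, run low, because the trimmed-mean factor lowered their 1-column sums most. SPM therefore overstate what is lower in these 2 mice. Cd74 was called on the unthinned sums, which carry this scaling (1.05, SE 0.29, adjusted p = 0.044). It was not called after thinning (0.56, SE 0.34, adjusted p = 0.51). Of the MHC class II genes, 9 of 11 were on the higher side in arthritic mice after thinning, with a median of 0.37 against 0.14 over all genes. Csf1r stood at 145, 148, 82.2, 218 and 128 SPM in arthritic mice, against 110, 89.7 and 0 SPM in healthy mice, and Cx3cr1 at 108, 123, 126, 72.7 and 95.8 SPM, against 155, 0 and 164 SPM. The groups overlapped for both genes, and neither passed in either analysis. Ctss stood at 2068, 1805, 2038, 1509 and 1851 SPM in arthritic mice, against 1834, 852 and 819 SPM in healthy mice, with an adjusted p of 0.78 after thinning. Flt3 and Itgax each rested on 1 signal unit in the healthy mice, against 40 and 20 in the arthritic mice, and were too low to be tested after thinning.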

How the data were processed

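Blood cells were profiled by Seq-Well and processed by the Drop-seq core computational protocol, per the labels' protocols, with build GRCm38.p5 per the submitters' processing notes. The sources used here give no aligner, cell filter or way of assigning columns to classes. The deposited blood table holds signal for 23499 genes, as whole-number sums in each barcode column, which the authors did not scale to a common total. It was not treated as counts, because many columns are identical. A deposited table of joint data was not used.

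Signal was summed over columns per mouse, scaled with a trimmed-mean factor (trims of 30% and 5%), expressed per 1000000 and log2-transformed after adding 1. The limma 3.58.1 tests (R 4.3.3, mean trend) covered genes that reached 10 SPM in as many sums as the smaller group has. Because fewer than 3 mice had 3 columns of each kind, mice with 1 of each were used, as foreseen. The thinning used 20 draws and genes with a mean of 50 SPM or more, a choice made after seeing the data. Other steps used Python 3.11.15 and scipy 1.17.1, and the fits were tested on simulated data. Named genes were the largest 20 higher and 5 lower of the class with 1 sign in every mouse, up to 12 per direction between kinds (8 smallest p where none passed) and up to 6 between arthritic and healthy mice (6 smallest p where none passed), at 50 SPM or more where a call was made, beside members of the gene lists; unnamed gene models were left out. Of the genes so named, 1 is not reported here. Between kinds the 1 gene called higher was below 50 SPM, and the 8 smallest p were used. Further genes called after thinning were chosen after their values were seen. Members and lists were chosen with earlier results of these data known. Mice are separate libraries per the labels. The alternatives are other scaling, pseudocounts, filters and splits, and leaving out mice or columns.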

Additional observations from a re-analysis of the deposited data

Results flagged for a closer look

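The median share of hemoglobin signal per column of the class was 28.78% in arthritic mouse 4, against 0.204% to 0.610% in arthritic mice 1, 3, 5 and 6. The gap between mouse 4 and the next mouse was 0.9858 of the whole range of the 5 arthritic mice. Of 34 groups of values examined in this way 1 stood out, and chance gives about 1 in 20. The medians in healthy mice 1, 2 and 4 were 14.8%, 9.40% and 37.6%, on 4, 1 and 1 columns.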

How the results depend on the processing

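Genes over 1 higher in the class in all mice numbered 30, and 83 by total signal alone, 15 with a pseudocount of 10, 70 against the mean of the other classes, 188 without granulocyte columns and 18 without columns shared between mice. Those over 1 lower numbered 133, and 73 by total signal and 77 with a pseudocount of 10. Leaving out 1 mouse gave 39 to 81 higher and 138 to 282 lower, under a rule that fewer mice then have to meet.

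Between the kinds on the unthinned sums, 1 gene was higher, and 2 by total signal, 11 with a pseudocount of 10, 81 (3729 lower) with no filter, 0 (251 lower) with a filter at 50, 3 with identical columns counted once, 2 with the split by summed share, 208 without columns near the cut, 23 with 5 columns of each kind, 54 (3016 lower) with array weights, 0 (1040 lower) without columns shared between mice, 27 without hemoglobin-rich columns and 12 (52 lower) after thinning. The pairing of sums by mouse mattered little there, since without the replicate block 5 were higher. Leaving out 1 mouse gave 0 to 23 higher and 1068 to 1750 lower. With the split by summed share the log2 differences of Rcbtb1 (−0.16), Gna15 (−1.80), Apoa1bp (−2.52) and Ipo5 (−4.11) turned round. After thinning, leaving out 1 mouse gave 0 to 107 higher and 0 to 100 lower, leaving out the hemoglobin-rich columns 105 and 116, leaving out columns shared between mice 0 and 1, and removing the replicate block 0 and 0. The mean share of dendritic-like columns was 3.63% with the split by summed share, 8.14% without columns near the cut, 10.01% with identical columns counted once, and 7.07% to 13.3% without any 1 mouse.

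Between arthritic and healthy mice on the unthinned sums, 1083 genes were higher and 1 lower, and 2 were lower by total signal, 0 and 0 with a pseudocount of 10, 0 lower with no filter, 69 and 0 with a filter at 50, 2327 and 6 without columns shared between the groups, 0 and 0 with array weights, 1782 and 7 without hemoglobin-rich columns and 0 and 0 after thinning. Leaving out 1 mouse gave 703 to 2970 higher and 0 to 14 lower. The replicate block pairs mice by number only, with correlations of 0.063 and −0.11 between same-numbered mice. With it 0 and 0 were called on the unthinned sums, and 1 and 6 after thinning. After thinning, leaving out 1 mouse gave 0 to 10 higher and 0 to 9 lower, and leaving out the hemoglobin-rich columns 104 and 176. Cx3cr1 turned round on the unthinned sums without shared columns (−0.72), with the block (−0.45), without healthy mouse 2 (−0.62, in a range to 3.06 over the mice left out), without hemoglobin-rich columns (−0.15) and after thinning (−0.0072). After thinning it ranged from −0.71 to 0.20 over the mice left out, with 0.03, 0.09, 0.03 and 0.20 without arthritic mouse 4, arthritic mouse 6, healthy mouse 1 and healthy mouse 4. Without hemoglobin-rich columns Nlrp1b (1.27), Hba-a2 (2.52), Hbb-bs (0.75), Hba-a1 (1.14), Bcar3 (1.76) and Itgax (−1.67) turned round on the unthinned sums, and Hba-a2 (1.09), Hbb-bs (0.19), Hba-a1 (0.42), Csf1r (−0.032) and Ctss (−0.24) after thinning. The cause of these shifts was not tested.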
